A study of Homo sapiens with 12 samples.

Results

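Solute carriers are a large group of membrane transport proteins, and their mRNAs were followed here through a purification of RNA bound to a fragment of TNIP2. Members were chosen by their symbol and selected on their level in Control Input. The 154 genes described are those of 25369 in the deposited tables whose symbol consists of SLC, a family number, the letter A and a member number, and whose mean over the 3 Control Input libraries was a normalized count of 100 or more. Of 334 symbols of this form, 179 lay below that level and SLC2A1 was left out by the rule. By the known place of the proteins, 35 members were SLC25 genes, named after the mitochondrial carrier family, 67 encode carriers of the plasma membrane, 37 encode carriers of inner membranes (the Golgi, endoplasmic reticulum, endosomes and lysosomes), and 15 were not assigned to a class. All 154 passed the filter on low values, which asked for a value of at least 10 in 3 or more libraries.

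The cells were HEK293T, an embryonic kidney line that takes up plasmids readily. They had been transfected with a plasmid for the Halo tag (Control), a protein that binds its resin covalently, or for Halo-TNIP2 196-346 (TNIP2), the tag joined to the stretch from residue 196 to 346 of TNIP2. TNIP2 is an adaptor of NF-kB signalling that binds ubiquitin. RNA was prepared from 100 µl of extract (Input) or from 90 µl of material purified through the tag (Pulldown), giving 4 groups of 3 libraries. All groups share the line and carry a tagged plasmid. No label ties the libraries of a group to separate transfections. The p-values therefore reflect the spread among these libraries only, and that spread may be technical.

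A solute carrier moves a small molecule or ion across a membrane by changing shape, usually coupled to a gradient rather than to ATP hydrolysis. Carriers of the plasma membrane and of the Golgi, endosomes and lysosomes are multi-pass proteins made by ribosomes at the endoplasmic reticulum, where the Sec61 channel and the ER membrane complex place them in the membrane. SLC25 carriers are multi-pass proteins as well, but cytosolic ribosomes make them and the TIM22 pathway puts them into the inner mitochondrial membrane.

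Across the whole series, the depth recovered per library was 3586824 to 6396338 reads for Control Pulldown, 13773616 to 20761105 for Control Input, 8886134 to 16734915 for TNIP2 Input and 10298655 to 29486388 for TNIP2 Pulldown. TNIP2 itself had normalized counts of 272 to 304 in Control Input, 309 to 1472 in Control Pulldown, 13318 to 46568 in TNIP2 Input, and in TNIP2 Pulldown 51905 to 193013. Of the markers set for the line, VIM (3384 to 7416), KRT18 (436 to 806) and KRT8 (136 to 286) were present in every library. PAX2, also set as a marker of the line, was low (2 to 22). Among markers of other tissues, COL1A1 of fibroblasts (15 to 86), ALB of liver (0 to 33) and PECAM1 of endothelium (2 to 9) were low. The blood markers CD3E and HBB were at 0 and PTPRC at 0 or 1. On the first principal component, with 66.7% of the variance, the TNIP2 Pulldown libraries stood apart from the other 9. On the second, with 11.1%, TNIP2 Input replicate 3 and TNIP2 Pulldown replicate 3 stood apart from the rest, and values without them are given beside several genes. A value in a Pulldown library is a share of the RNA recovered there, and the amount recovered is not known. In bulk RNA, fewer cells holding a transcript and less of it per cell cannot be told apart.

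Most solute carrier mRNAs that changed were depleted in the TNIP2 Pulldown. Against TNIP2 Input, 78 of the 154 were lower, 19 were higher and 57 did not pass the test. Over all 14627 genes tested, 28.3% were lower and 29.8% higher, and over the 10221 other genes with a Control Input mean of 100 or more, 32.5% were lower and 33.3% higher. The members' median log2 fold change was -0.55, with a middle range from -1.16 to 0.05, beside 0.01 over all genes tested. In 76 members every TNIP2 Pulldown library lay below every TNIP2 Input library and in 15 every one lay above, beside 28.1% and 29.4% of all genes tested. The extremes were SLC30A9 at -2.65 and SLC38A2 at 2.94. A call here is an adjusted p under 0.05 in limma, with Benjamini-Hochberg adjustment over all genes tested.

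Against Control Pulldown, which asks what the tag and resin carry without the TNIP2 fragment, 83 members were lower, 18 higher and 53 not called. The background was 28.7% lower and 30.6% higher over all genes tested, with 32.7% and 33.2% over the other genes of 100 or more. Libraries did not overlap in 87 members that were lower and 17 that were higher, beside 29.5% and 31.5% of all genes tested. The members' median was -0.66, beside 0.03 over all genes tested. Both comparisons share the TNIP2 Pulldown libraries, so they are not separate evidence. Centring each library on ribosomal protein genes in place of the deposited scaling moved the median of all genes to -0.47 against TNIP2 Input and to -0.30 against Control Pulldown. Of the 80 ribosomal protein genes tested, 40 were higher and 16 lower against TNIP2 Input, with a median of 0.48. They were not a steady reference, and centring on them lowered the change of every gene within a comparison. With that centring 10 members were higher and 103 lower against TNIP2 Input, and 11 higher and 103 lower against Control Pulldown.

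With the tag alone these mRNAs stayed close to their Input level, and the median over all genes tested did too. Control Pulldown against Control Input had a median of -0.01 over the members, with a range from -0.38 for SLC38A7 to 0.55 for SLC30A1. The median was also -0.01 over all genes tested and over the other genes with a mean of 100 or more. None of the 154 moved past a log2 fold change of 1 in either direction, beside 1.67% of all genes tested and 0.362% of the other genes with a mean of 100 or more. TNIP2 Input against Control Input ranged from -0.62 for SLC7A3, a cationic amino acid transporter, to 0.37 for SLC10A3, with a median of -0.06, and again none passed 1 (0.328% of all genes tested and 0.0294% of the other genes of 100 or more). The median of that comparison was -0.01 over all genes tested and -0.02 over those other genes. These values carry no test, because the Control Input level chose the members.

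**Figure D1:**
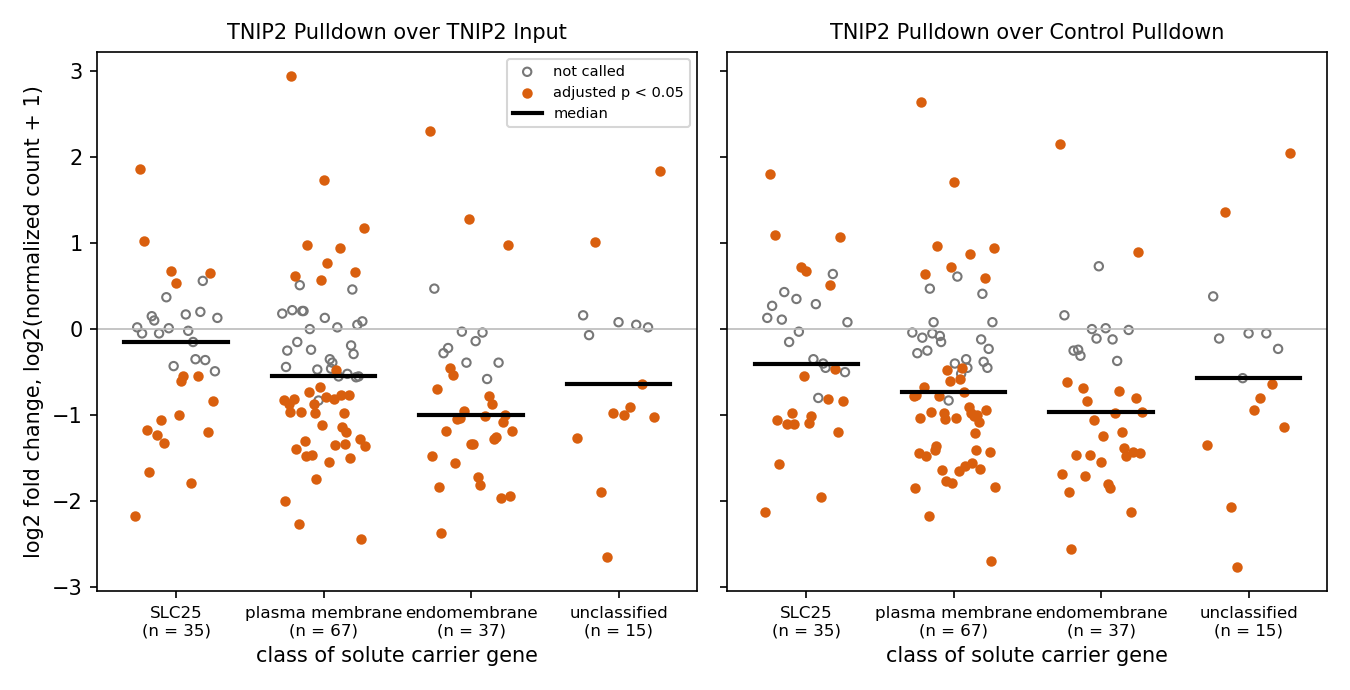
Each point is 1 of the 154 solute carrier genes, placed by class (horizontal axis) and by its log2 fold change on log2(normalized count + 1) (vertical axis), with filled points for adjusted p < 0.05, open points for genes not called and a bar for the class median. The medians run from -0.15 in SLC25 to -1.0 in the endomembrane class against TNIP2 Input (left panel), and from -0.40 to -0.96 against Control Pulldown (right panel).

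The classes differed in how far their medians lay below 0. Against TNIP2 Input the SLC25 genes had a median of -0.15, with 13 lower and 5 higher of 35. That is 37.1% lower and 14.3% higher, beside 32.5% and 33.3% of the other genes of 100 or more. The SLC25 share lower was thus near this background. The plasma membrane genes had a median of -0.55, with 32 lower and 9 higher of 67. The endomembrane genes had a median of -1.0, with 25 lower and 3 higher of 37, and the unclassified genes a median of -0.64, with 8 lower and 2 higher of 15. Against Control Pulldown the medians were -0.40 in SLC25 (14 lower, 6 higher), -0.73 in the plasma membrane class (38 lower, 8 higher), -0.96 in the endomembrane class (24 lower, 2 higher) and -0.57 among the unclassified genes (7 lower, 2 higher). These are descriptions of the lists, and no test between classes was made. In that comparison 40% of SLC25 genes were lower and 17.1% higher, beside 32.7% and 33.2% of the other genes of 100 or more. Counts of classes and families given below stand beside the same shares of those other genes.

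The class medians were below 0 in each of the TNIP2 Pulldown libraries. Relative to the mean of TNIP2 Input, the SLC25 medians in the 3 TNIP2 Pulldown libraries were -0.24, -0.24 and -0.58. Those of the plasma membrane class were -0.36, -0.61 and -0.82, and those of the endomembrane class were -0.79, -1.11 and -0.89. In the 9 other libraries the medians of these classes lay between -0.13 and 0.25. In each TNIP2 Pulldown library the endomembrane median lay below those of both other classes. The SLC25 median against TNIP2 Input depended on single libraries: it was -0.35 without TNIP2 Input replicate 3, -0.34 without TNIP2 Pulldown replicate 2 and -0.09 without TNIP2 Pulldown replicate 3. Against Control Pulldown it was -0.24 without TNIP2 Pulldown replicate 3 and -0.28 without Control Pulldown replicate 3.

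**Figure D2:**
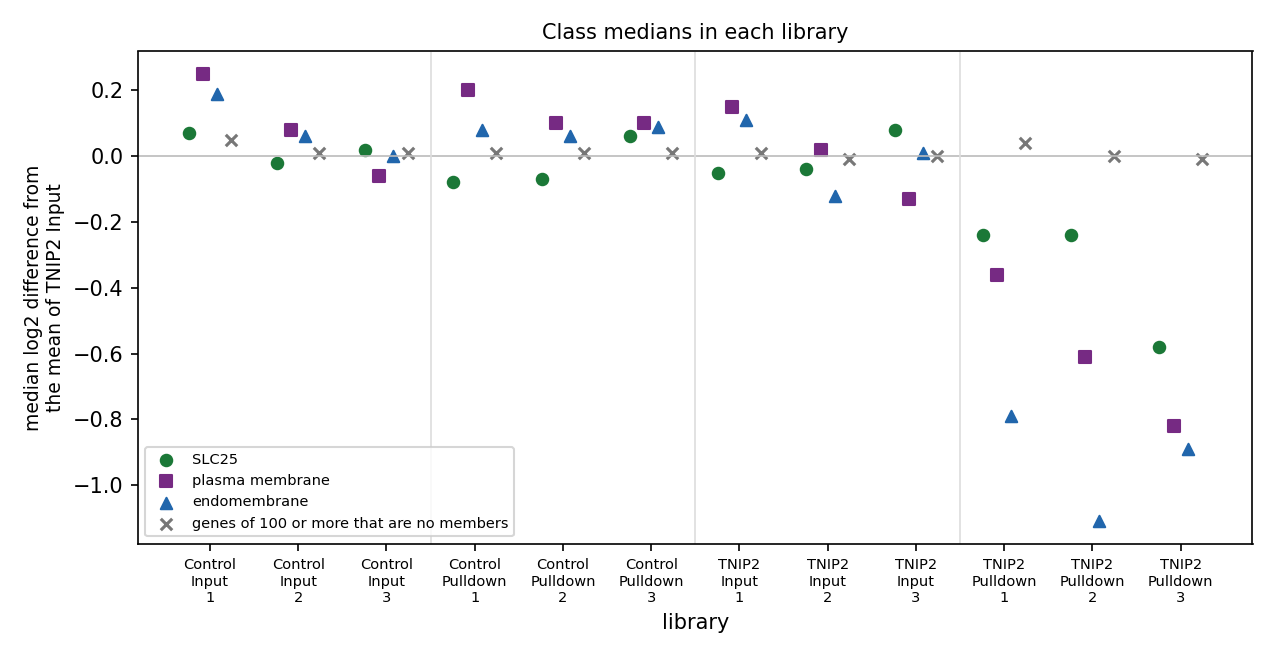
For each of the 12 libraries (horizontal axis), points give the median over the genes of a class of the log2 difference from the mean of the TNIP2 Input libraries (vertical axis), for SLC25, plasma membrane and endomembrane genes and for the 10221 other genes with a Control Input mean of 100 or more. The 3 TNIP2 Pulldown libraries lie between -0.24 and -1.11 in the solute carrier classes, while the other genes stay between -0.01 and 0.05.

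SLC38A2, which encodes the amino acid transporter SNAT2, was the member with the largest gain. Its normalized counts were 4044, 3602 and 2214 in TNIP2 Input, 4047, 3728 and 4018 in Control Pulldown, and 36545, 32389 and 12402 in TNIP2 Pulldown. The lowest TNIP2 Pulldown library was above the highest of all others. The log2 fold change was 2.94 (SE 0.32, adjusted p = 2.2e-06), or 7.69-fold, against TNIP2 Input, and 2.64 (SE 0.32, adjusted p = 5.8e-06) against Control Pulldown. This transcript made up 3.6% to 6.24% of the summed normalized counts of the plasma membrane class in the other 9 libraries, and 23.9% to 43.9% in TNIP2 Pulldown. The sum of the other 66 genes of the class ran from 39416 to 52868 after the TNIP2 purification and from 56896 to 64966 before it, so the groups did not overlap without SLC38A2.

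Among the 19 amino acid transporters and partners at the plasma membrane, 9 were lower and 4 higher against TNIP2 Input, and 11 were lower and 3 higher against Control Pulldown. SLC38A1, the close relative of SLC38A2 that also takes up neutral amino acids, went the other way, with a log2 change of -0.79 (SE 0.21, adjusted p = 0.0044). Its counts were 4454, 4573 and 2997 in TNIP2 Input, against 3138, 2207 and 1693 in TNIP2 Pulldown, where the highest library overlapped the lowest Input library. SLC1A5, the glutamine transporter ASCT2, fell from 3211, 2582 and 2588 to 1557, 1215 and 1534 (-0.96, SE 0.17, adjusted p = 1.7e-04), with no overlap. SLC1A4, its relative ASCT1, had -0.96 as well (adjusted p = 3.3e-04).

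The heterodimeric exchangers pair a light chain with the heavy chain SLC3A2. SLC3A2 and the light chains SLC7A5 and SLC7A11 had similar log2 changes against TNIP2 Input, while the light chain SLC7A6 was higher. Differences between subunits were not tested. The light chain LAT1, encoded by SLC7A5, had -0.81 (SE 0.20, adjusted p = 0.0029) and SLC7A11, the cystine-glutamate exchanger xCT, had -0.87 (SE 0.16, adjusted p = 3.6e-04) against TNIP2 Input and -1.44 against Control Pulldown. SLC3A2, which is itself single-pass, did not pass the test. It had counts of 3321, 2471 and 7751 in TNIP2 Input, against 2039, 1353 and 4117 in TNIP2 Pulldown, both libraries numbered 3 being the highest of their group. It had -0.83 (SE 0.39, adjusted p = 0.084) against TNIP2 Input. It was called without TNIP2 Input replicate 2 (-1.17, adjusted p = 0.023), without replicate 3 of TNIP2 Pulldown (-1.26, adjusted p = 0.0084), without both TNIP2 libraries numbered 3 (-0.79, adjusted p = 0.0081), and with the replicate number as a block (-0.83, adjusted p = 0.044). Without TNIP2 Input replicate 3 alone it was -0.35 (adjusted p = 0.41).

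SLC7A6, the light chain y+LAT2, was higher: it rose from 930, 966 and 804 to 2176, 1840 and 1278 (0.94, SE 0.18, adjusted p = 4.5e-04). SLC7A3, a cationic amino acid transporter that works without a heavy chain, had -1.12 against TNIP2 Input and -1.79 against Control Pulldown. SLC6A8, the creatine transporter, rose by 0.62 (adjusted p = 0.0045). SLC7A1, the cationic amino acid transporter CAT1, was called against TNIP2 Input at 0.77 (adjusted p = 0.027) but not without TNIP2 Input replicate 3 or either of TNIP2 Pulldown replicates 1 and 2, where it was 0.41 to 0.63 (adjusted p 0.10 to 0.14). The calls of SLC6A8 and SLC7A1 against TNIP2 Input also ended with quantile normalization, and with centring on genes of ribosomal proteins.

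**Figure D3:**
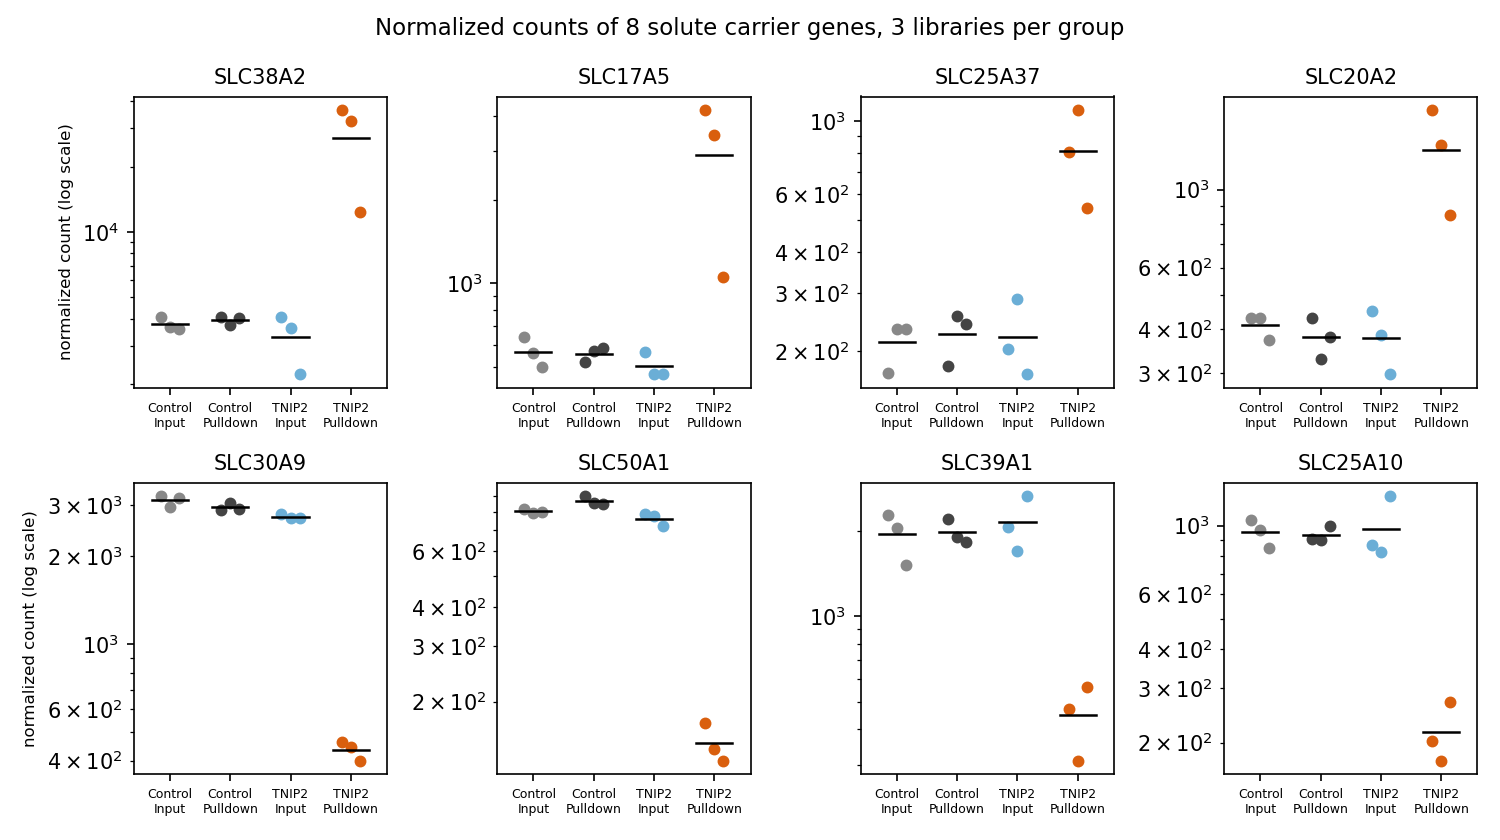
Normalized counts (vertical axis, log scale, with its own range in each panel) of 8 solute carrier genes in the 4 groups (horizontal axis), with 1 point per library and a bar for the group mean. In the top row every TNIP2 Pulldown library is above the other 9 libraries, and in the bottom row every one is below them, as for SLC38A2 (12402 to 36545) and SLC30A9 (400 to 464).

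Of the 26 plasma membrane carriers of sugars, monocarboxylates, vitamins, choline and nucleosides, 13 were lower and 2 higher against TNIP2 Input, and 16 lower and 2 higher against Control Pulldown. SLC5A6, the sodium-dependent multivitamin transporter, fell from 1003, 891 and 1212 to 277, 205 and 298, a 3.99-fold difference (adjusted p = 3.4e-07), although its span overlaps ATRAID. No library overlapped. Log2 fold changes were -1.50 for SLC19A1, the reduced folate carrier, -1.74 for the nucleoside transporter SLC29A2, -1.36 for the choline transporter SLC44A1 and -1.33 for the riboflavin transporter SLC52A2.

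The members that were higher in this group were SLC46A1 and SLC2A3. SLC46A1, the proton-coupled folate transporter, whose span overlaps SARM1, had 589, 502 and 471 in TNIP2 Input, against 963, 716 and 806 in TNIP2 Pulldown (0.66, SE 0.16, adjusted p = 0.0028). The call of SLC46A1 ended when libraries were centred on ribosomal protein genes (0.19, adjusted p = 0.41). SLC2A3, the glucose transporter GLUT3, had 0.98 (adjusted p = 0.031) with libraries that overlapped, and it was not called without TNIP2 Input replicate 3 or without TNIP2 Pulldown replicate 1 or 2 (0.66 to 0.79, adjusted p 0.12 to 0.15), while without TNIP2 Pulldown replicate 3 it was 1.48. Centring on ribosomal protein genes ended its call too (0.51, adjusted p = 0.16). SLC16A1, the lactate transporter MCT1 and among the most abundant members, was not called (-0.46, SE 0.27, adjusted p = 0.16). Its counts of 4772, 2938 and 1899 in TNIP2 Pulldown overlapped those of 5043, 3651 and 3754 in TNIP2 Input. It was called without TNIP2 Pulldown replicate 1 (-0.80, adjusted p = 0.010) and with the replicate block (-0.46, adjusted p = 0.039), and was -0.13 (adjusted p = 0.63) without replicate 3 of TNIP2 Pulldown.

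Of the 22 plasma membrane carriers of ions and metals, 10 were lower and 3 higher against TNIP2 Input, and 11 lower and 3 higher against Control Pulldown. SLC20A2, a sodium-phosphate cotransporter, rose from 452, 386 and 298 to 1688, 1343 and 849, with a log2 change of 1.73 (SE 0.23, adjusted p = 1.4e-05). Its span overlaps SMIM19. SLC20A1, the other phosphate transporter of this family, went from 2301, 1974 and 2232 to 1590, 1118 and 1402, a log2 change of -0.67 (SE 0.16, adjusted p = 0.0025). The libraries of either gene did not overlap between the groups.

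SLC4A7, a sodium-bicarbonate cotransporter, rose from 947, 910 and 880 to 2890, 2455 and 1227 (1.17, SE 0.24, adjusted p = 6.7e-04). SLC12A7, the potassium-chloride cotransporter KCC4, had 0.57 (adjusted p = 0.038). That call ended without Control Input replicate 2, TNIP2 Input replicate 2, TNIP2 Input replicate 3 or TNIP2 Pulldown replicate 3 (0.34 to 0.57, adjusted p 0.051 to 0.16). It ended as well without both TNIP2 libraries numbered 3 (0.24, adjusted p = 0.30) and was 0.10 (adjusted p = 0.79) when libraries were centred on genes of ribosomal proteins. SLC12A2, the sodium-potassium-chloride cotransporter NKCC1, fell from 1133, 994 and 847 to 684, 572 and 506 (-0.76, SE 0.17, adjusted p = 0.0017).

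The metal ion families SLC39, whose members bring zinc and related metals into the cytosol, and SLC30, whose members mostly carry zinc out of it, were mostly lower. Of the 10 SLC39 genes, 7 were lower and 0 higher against TNIP2 Input, and 8 lower and 0 higher against Control Pulldown. Of the 6 SLC30 genes, 4 were lower in each comparison, and 1 was higher against TNIP2 Input.

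SLC30A9, a zinc transporter family member left unclassified here, fell furthest of all 154 members. Its counts were 2793, 2707 and 2716 in TNIP2 Input, 2893, 3057 and 2899 in Control Pulldown, and 464, 445 and 400 in TNIP2 Pulldown. The log2 fold change was -2.65 (SE 0.13, adjusted p = 5.0e-09), or 6.28-fold lower, against TNIP2 Input and -2.76 (SE 0.13, adjusted p = 3.1e-09) against Control Pulldown. SLC39A1, the zinc importer ZIP1, went from 2065, 1700 and 2645 to 473, 311 and 566 (-2.26, SE 0.23, adjusted p = 1.1e-06), although its span overlaps CREB3L4.

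The Golgi zinc transporters SLC30A5, SLC30A6 and SLC30A7 had log2 fold changes of -1.47, -1.55 and -1.28 against TNIP2 Input. Those of SLC39A8 and SLC39A14, importers of zinc and other metals at the cell surface, were -1.54 and -1.30. SLC39A13, SLC39A7 and SLC39A6 had -1.25, -1.05 and -0.73. SLC39A9 had -0.53 (adjusted p = 0.026), a call that ended without TNIP2 Input replicate 1 or 3 and without TNIP2 Pulldown replicate 2 or 3 (-0.54 to -0.34, adjusted p 0.053 to 0.094), and without both TNIP2 libraries numbered 3 (-0.27, adjusted p = 0.18). SLC39A10 had -0.52 (SE 0.34, adjusted p = 0.20) against TNIP2 Input, where it was called when replicate 3 of TNIP2 Input was left out (-0.84, adjusted p = 0.048), and likewise replicate 1 of TNIP2 Pulldown (-0.91, adjusted p = 0.026). Without replicate 3 of TNIP2 Pulldown it was -0.07 (adjusted p = 0.84). No label pairs the libraries, but by number each TNIP2 Pulldown value was below that of TNIP2 Input (1743 to 1488, 1371 to 946 and 809 to 461). With the replicate block the adjusted p was 0.054 over all libraries and 0.023 over the 6 TNIP2 libraries. SLC39A10 was called against Control Pulldown at -1.0 (adjusted p = 0.020), though not without Control Pulldown replicate 1 (-0.91, adjusted p = 0.067) or without replicate 3 of TNIP2 Pulldown (-0.54, adjusted p = 0.098).

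SLC30A4, a zinc transporter of endosomal vesicles, was the exception. It rose from 193, 223 and 112 to 432, 620 and 260, a log2 change of 1.28 (SE 0.31, adjusted p = 0.0024). Against Control Pulldown, at 189, 252 and 316, it did not pass the test (0.73, adjusted p = 0.052), where 1 TNIP2 Pulldown library lay within the Control range. It passed when any of 4 libraries was left out (Control Pulldown replicate 3, TNIP2 Input replicate 2 or 3, or TNIP2 Pulldown replicate 3, at 0.73 to 1.06, adjusted p 0.0052 to 0.047) and with the replicate block (adjusted p = 0.040). Its span overlaps the pseudogene HMGN2P46.

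**Figure D4:**
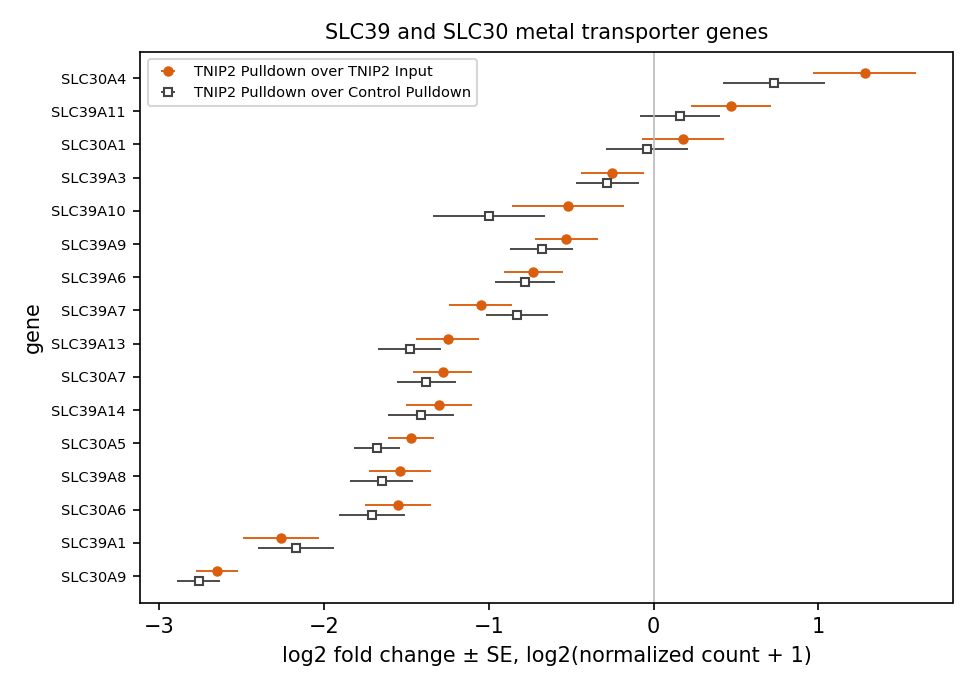
Log2 fold changes ± SE (horizontal axis) of the 10 SLC39 and 6 SLC30 genes (vertical axis, ordered by the change against TNIP2 Input), with circles for TNIP2 Pulldown over TNIP2 Input and squares for TNIP2 Pulldown over Control Pulldown. SLC30A9 lies lowest at -2.65 and -2.76, and SLC30A4 highest at 1.28 and 0.73.

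Within the 35 SLC25 genes, the changes ran from -2.17 to 1.86 against TNIP2 Input, and 17 genes were not called. SLC25A10, the dicarboxylate carrier, fell from 863, 823 and 1245 to 202, 175 and 271, or 4.50-fold (adjusted p = 3.5e-07). SLC25A15, an ornithine carrier, fell from 924, 934 and 753 to 341, 260 and 176 (-1.79, adjusted p = 2.9e-06), with a span that overlaps TPTE2P5. SLC25A1, the citrate carrier, fell from 1793, 1642 and 2052 to 588, 492 and 662 (-1.66, adjusted p = 4.0e-07). The libraries of these genes did not overlap between the groups, and in Control Pulldown SLC25A1 had 1727, 1698 and 1725. SLC25A39, a glutathione transporter of mitochondria, had -1.32, and SLC25A26, the S-adenosylmethionine carrier, -1.19.

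The SLC25 genes that were higher included SLC25A37, SLC25A42, SLC25A20 and SLC25A29. SLC25A37, the iron importer mitoferrin-1, rose from 203, 289 and 170 to 806, 1085 and 547, or 3.62-fold (1.86, SE 0.26, adjusted p = 2.4e-05), with no overlap. SLC25A28, the other mitoferrin, was not called at -0.35 (SE 0.19, adjusted p = 0.12), although it was without TNIP2 Pulldown replicate 3 (-0.56, adjusted p = 0.0070), and it was -0.17 (adjusted p = 0.45) without replicate 1 of that group. SLC25A42, a carrier of coenzyme A, went from 196, 199 and 274 to 447, 502 and 404 (1.02, SE 0.19, adjusted p = 2.8e-04). SLC25A29, a carrier of basic amino acids whose span overlaps YY1, had 0.65 and SLC25A20, the carnitine-acylcarnitine carrier, 0.67. Against Control Pulldown these genes were higher as well, and so was SLC25A38, a glycine carrier needed for heme synthesis.

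The smaller gains were less firm. SLC25A38 had 0.51 (adjusted p = 0.023) against Control Pulldown, not called without Control Pulldown replicate 2 or 3 or without replicate 3 of TNIP2 Pulldown (0.32 to 0.51, adjusted p 0.056 to 0.083). Against TNIP2 Input it was 0.20 (adjusted p = 0.35). SLC25A20 was not called without TNIP2 Input replicate 1 or 2 or without TNIP2 Pulldown replicate 1 (0.55 to 0.58, adjusted p 0.057 to 0.063). The count of SLC25 genes higher against TNIP2 Input was 3 without TNIP2 Input replicate 1 or replicate 2, and 8 without both TNIP2 libraries numbered 3. The calls of SLC25A20 and SLC25A29 against TNIP2 Input ended under centring on ribosomal protein genes.

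The most abundant SLC25 transcripts per length were those of the ADP/ATP carrier SLC25A5 and the phosphate carrier SLC25A3, at 303 ± 71.5 and 248 ± 6.51 FPKM in Control Input (SD, n = 3), ahead of SLC25A39 at 103 ± 5.27. SLC25A5 was lower in TNIP2 Pulldown, at 2471, 2282 and 2022 against 5810, 5650 and 2799 in TNIP2 Input (-1.0, SE 0.25, adjusted p = 0.0028). It has processed pseudogenes and overlaps SLC25A5-AS1, so reads may be shared. SLC25A3, which overlaps SNORA53, had -0.36 (SE 0.18, adjusted p = 0.11) against TNIP2 Input and was called when replicate 3 of TNIP2 Input was left out (-0.49, adjusted p = 0.037), and likewise replicate 1 of TNIP2 Pulldown (-0.51, adjusted p = 0.028), while without replicate 3 of TNIP2 Pulldown it was -0.14 (adjusted p = 0.40). Against Control Pulldown SLC25A3 was just past the threshold at -0.46 (adjusted p = 0.043) and lost the call when any of 8 libraries was left out (every Control library, TNIP2 Input replicate 2 and TNIP2 Pulldown replicate 3, adjusted p 0.052 to 0.16), the value being -0.24 without TNIP2 Pulldown replicate 3. SLC25A6, another ADP/ATP carrier gene, was listed at 0 in every library and is no member. The read counter and annotation are not given, so whether its reads could be counted is not known. A value of 0 is therefore not evidence that it is silent, and the ranking by FPKM leaves it out.

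**Figure D5:**
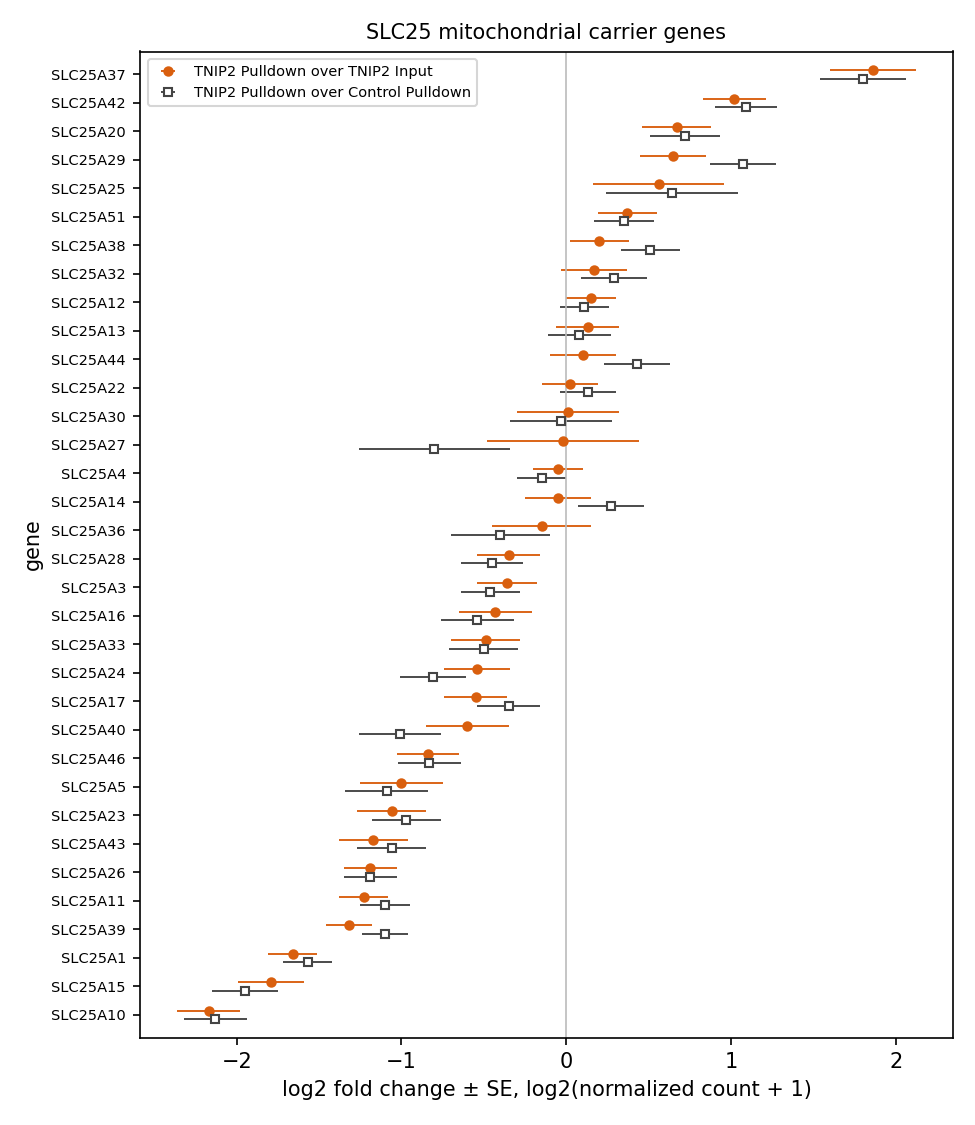
Log2 fold changes ± SE (horizontal axis) of 34 of the 35 SLC25 genes (vertical axis, ordered by the change against TNIP2 Input), with circles for TNIP2 Pulldown over TNIP2 Input and squares for TNIP2 Pulldown over Control Pulldown. A single gene is not reported here and not drawn. The genes run from SLC25A10 at -2.17 to SLC25A37 at 1.86 against TNIP2 Input.

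The endomembrane class was the one with the largest share lower, 67.6% against TNIP2 Input and 64.9% against Control Pulldown. SLC50A1, the sugar transporter SWEET1 of the Golgi, fell from 789, 776 and 722 to 171, 141 and 130, or 5.18-fold (-2.37, SE 0.14, adjusted p = 1.6e-08). SLC35A5, a member of the nucleotide sugar transporter family, fell from 1215, 1000 and 1121 to 352, 308 and 212 (-1.96, adjusted p = 4.8e-07), and its span overlaps ATG3. SLC38A7, a lysosomal amino acid transporter, had -1.94, and SLC48A1, a heme transporter of endosomes that overlaps HDAC7 and RAPGEF3, had -1.83. SLC37A4, the glucose-6-phosphate transporter of the endoplasmic reticulum, had -1.72 and SLC31A2, a copper transporter family member, -1.81.

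Against this, SLC17A5, the lysosomal sialic acid exporter sialin, had the second largest gain of all members. Its counts were 566, 471 and 473 in TNIP2 Input, 521, 570 and 586 in Control Pulldown, and 4206, 3419 and 1058 in TNIP2 Pulldown. The TNIP2 Pulldown libraries were all higher, replicate 3 by less than the other two, and the change was 2.30 (SE 0.35, adjusted p = 6.1e-05), or 4.93-fold. Without that library the log2 change was 2.92 (adjusted p = 1.2e-08). SLC35A1, the Golgi transporter of CMP-sialic acid, had 0.98 (SE 0.27, adjusted p = 0.0064) against TNIP2 Input and 0.89 (adjusted p = 0.011) against Control Pulldown. The latter call ended without TNIP2 Pulldown replicate 1 (0.67, adjusted p = 0.062) or replicate 2 (0.72, adjusted p = 0.055), which leaves 1 endomembrane gene higher in that comparison.

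Among the unclassified genes besides SLC30A9, SLC22A23, an organic ion transporter family member, rose from 249, 278 and 145 to 699, 1004 and 664 (1.84, SE 0.25, adjusted p = 2.0e-05). SLC45A4 rose from 188, 185 and 169 to 341, 344 and 415 (1.01, adjusted p = 6.4e-05), a call that ended when libraries were centred on ribosomal protein genes (0.54, adjusted p = 0.053). SLC2A11, a glucose transporter family member, fell from 155, 176 and 123 to 43, 39 and 37 (-1.89, adjusted p = 1.1e-06). Groups did not overlap for any of these, which the rule for naming them required.

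Several families held members on both sides. Of the 6 SLC38 genes, 4 were lower and 1, SLC38A2, was higher against TNIP2 Input: besides SLC38A1 and SLC38A7, the lysosomal SLC38A9 had -0.78 and SLC38A10 had -0.90. Of the 6 SLC7 genes, 3 were lower and 2 higher. All 4 SLC1 genes were lower against Control Pulldown and 2 of them against TNIP2 Input. The pairs SLC38A2 and SLC38A1, SLC20A2 and SLC20A1, and SLC25A37 and SLC25A28 were set side by side after their values were seen, and the difference within a pair was not tested.

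Transcript length and level, which the comparisons did not use, were set beside the changes. Exonic length was not taken from an annotation. It was estimated from the deposited normalized counts and FPKM, so the lengths of single genes may be off. Across the 154 genes, Spearman's rho between this estimated length and the change against TNIP2 Input was 0.14, beside 0.25 over the 10221 other genes with a mean of 100 or more. It was 0.33 in the plasma membrane class and 0.23 in SLC25. The median estimated length was 2779 bases in SLC25, 4702 in the plasma membrane class and 3282 in the endomembrane class. Between the Control Input level and the change, rho was -0.24 over the members, -0.51 over the 35 SLC25 genes and -0.05 over the other genes. These are correlations across genes of the same libraries, which are not independent replicates.

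The genes on both sides of the membership threshold had negative changes. The members just inside it were SLC27A5 (Control Input mean 107, log2 fold change -0.58 against TNIP2 Input, adjusted p = 0.052, or 0.039 with the replicate block) and SLC38A7 (109, -1.94). The genes just outside were SLC9A5 (93.3, -1.35) and SLC27A3 (92.7, -1.36).

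Other membrane transport genes give the context of the same purification. Of 36 ABC transporters tested, 12 were lower and 5 higher against TNIP2 Input, with a median of -0.37. Among the 22 with a Control Input mean of 100 or more, as for the members, 10 were lower and 1 higher, with a median of -0.48. ABCA1, the cholesterol exporter, had 1.59 (adjusted p = 7.2e-05), and ABCE1, a ribosome recycling factor counted by its name, had -1.32 (adjusted p = 8.3e-06). Of 12 sodium pump and transporter partner genes, 5 were lower and 1 higher (median -0.53). Among the 11 of these with a Control Input mean of 100 or more, 4 were lower (36.4%) and 1 higher.

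Of the 16 genes for carrier import and outer membrane pores, which handle SLC25 proteins and their substrates, 8 were lower and 3 higher (median -0.65). The pores VDAC3 and VDAC2 had -2.58 and -2.06. Of the 14 genes of the ER membrane complex and Sec61 channel, 9 were lower and 3 higher (median -0.81), among them EMC6 at -1.99 and MMGT1 at -1.77. As for the members, each list's count stands beside 28.3% lower and 29.8% higher over all genes tested. Over the genes with a Control Input mean of 100 or more that are no members, the shares were 32.5% and 33.3%.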

How the data were processed

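RNA of Input and Pulldown material from HEK293T cells was sequenced in 12 libraries, 3 in each of 4 groups, after rRNA depletion. Normalized counts were deposited by the authors as whole numbers, treated here as a score because they appear to be counts divided by a library factor and rounded, next to deposited FPKM values. Per the submitters' processing notes, the tools were TopHat2 2.0.14 and DESeq2 1.6.3 with build hg19. Not given in the sources used here are the read counter, the annotation and whether strand was used. Columns of the TNIP2 libraries carry the letter F, assigned by elimination. Of the 154 members, 40 have a span that overlaps another measured gene, so their reads may be shared. Besides the overlaps given above, this holds for the named genes SLC7A5, SLC7A6, SLC7A11, SLC19A1, SLC25A26, SLC30A7, SLC31A2 and SLC37A4.

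Values were analysed as log2(normalized count + 1) over 14627 genes with 10 or more in at least 3 libraries, so a fold change is on that scale and understates the change of low genes. limma 3.58.1 (lmFit, eBayes with trend, R 4.3.3) was fitted to all 12 libraries with a mean per group and 8 residual degrees of freedom, two-sided, with Benjamini-Hochberg adjustment over all genes tested and calls at 0.05. The script was tested on simulated data. FPKM values were used for levels per length. Whole reads were recovered from FPKM steps for depth, and limma's voom was run on them with library sizes by median of ratios. Same-numbered TNIP2 Input and TNIP2 Pulldown libraries deviated together (r = 0.369 to 0.497), while Control Pulldown and TNIP2 Pulldown did not (-0.023 to 0.056). No label pairs them, and TNIP2 Input replicate 1 and TNIP2 Pulldown replicate 2 had an r of 0.274. The fit behind the calls took no account of a pairing, and the replicate block was run as an alternative.

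The members and lists were chosen with earlier results of these data known, and classes were assigned by hand from textbook knowledge. Named members were the called, non-overlapping genes with the highest and lowest changes in each class, those with the highest FPKM, a set of always-named genes and those at the threshold. For genes named by their change, a lack of overlap in the comparison that named them was thus a condition and no further evidence. SLC25A28, SLC25A38, SLC1A4, SLC7A1, SLC30A6, SLC30A7, SLC39A14, SLC39A13, SLC39A7, SLC35A1, SLC2A3, SLC31A2, SLC37A4, SLC38A9 and SLC38A10 were named after their values were seen. Single-gene results of some members are not reported here, though the counts and medians include them. Alternatives were the pseudocount, the filter, FPKM, quantile normalization, centring on ribosomal protein genes, voom, fewer libraries, the replicate block and each library left out. Leaving out both TNIP2 libraries numbered 3, the block on the 6 TNIP2 libraries alone and other membership thresholds were added after seeing the data.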

Additional observations from a re-analysis of the deposited data

Results flagged for a closer look

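For 10 named members, every TNIP2 Pulldown library lay on one side of the TNIP2 Input mean and every Control Pulldown library on the other side of the Control Input mean, on the log2 scale. The same held for 17 of all 154 members (11%) and for 13.1% of all genes tested, so the count is near the background. The difference between the constructs was not tested, and same-numbered Control libraries did not all go the same way for several of these genes. The log2 changes for TNIP2, with the Control value after each, were -0.76 and 0.08 for SLC12A2, -1.50 and 0.12 for SLC19A1, -1.28 and 0.11 for SLC30A7, and -0.79 and 0.11 for SLC38A1. They were -0.73 and 0.06 for SLC39A6, -1.36 and 0.11 for SLC44A1, -2.37 and 0.11 for SLC50A1, and -0.87 and 0.14 for SLC7A11. SLC25A29 (0.65 and -0.23) and SLC45A4 (1.01 and -0.30) were higher with TNIP2 and lower with the Control.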

How the results depend on the processing

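Centring on ribosomal protein genes gave 10 members higher and a median over all members of -1.02 against TNIP2 Input, and 11 higher and -0.99 against Control Pulldown. With it, SLC25 had 2 and 3 genes higher and medians of -0.62 and -0.73, the plasma membrane class 4 and 4 higher and medians of -1.02 and -1.07, and the endomembrane class medians of -1.47 and -1.29. Of the called genes in all, 28.8% and 35.7% were higher, against 51.3% and 51.6% as deposited. With voom the endomembrane median against Control Pulldown was -1.01. With a membership threshold of 500, 7 members were higher and 46 lower against TNIP2 Input (median -0.79), and 7 higher and 49 lower against Control Pulldown. Without both TNIP2 libraries numbered 3, 8 SLC25 genes were higher against TNIP2 Input. Against Control Pulldown the SLC25 median was then -0.24, with 13 plasma membrane and 4 endomembrane genes higher. With each library left out in turn, against TNIP2 Input, members higher ran from 16 to 24, members lower from 72 to 89 and their median from -0.74 to -0.51. SLC25 genes higher ran from 3 to 6 and their median from -0.35 to -0.09. Against Control Pulldown, members higher ran from 15 to 24 and lower from 78 to 89, the SLC25 median from -0.47 to -0.24, endomembrane genes higher from 1 to 3 and their median from -0.98 to -0.80. With the replicate block, 21 members were higher and 86 lower against TNIP2 Input, and 21 higher and 87 lower against Control Pulldown. Of the 154 members, 33 had another sign under at least 1 alternative against TNIP2 Input (21 of them with ribosomal protein centring) and 26 against Control Pulldown, and 0 of these were called by limma in the comparison as reported. Among named genes this was SLC25A38 against TNIP2 Input, at -0.27 (adjusted p = 0.41) with ribosomal protein centring. The causes of these shifts were not tested. Recovered depth was lowest in Control Pulldown, at 3586824 reads, which limits low genes there most.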

Other observations

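Solute carrier symbols below the membership threshold were tested as well. Of the 50 with a Control Input mean from 10 to under 100, 26 (52%) were lower and 3 (6%) higher against TNIP2 Input, with a median of -0.72. Against Control Pulldown 22 (44%) were lower and 3 (6%) higher, with a median of -0.74. Over all genes tested, at any level, the shares were 28.3% lower and 29.8% higher, and 28.7% and 30.6%. Of the 9 with a mean under 10, 0 were called in either comparison, with medians of 0.07 and 0.14.

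As a share of all normalized counts, the 154 members made up 0.934%, 0.775% and 0.704% in the 3 TNIP2 Pulldown libraries and 1.13% to 1.31% in the 9 others. The library totals differed as well, at 12639745 to 15074851 normalized counts in TNIP2 Pulldown and 10182326 to 11068819 in the others. The members' summed normalized counts were 136393, 116838 and 88922 in TNIP2 Pulldown and 120281 to 140424 in the others, so on that scale the first TNIP2 Pulldown library was not lower. SLC38A2 alone gave 36545 of the counts in that library, beside 2214 to 4048 in each of the 9 others. The sum therefore rests in part on a single gene. SLC25 genes made up 0.162%, 0.152% and 0.165%, against 0.282% to 0.312%. Their summed normalized counts were 23605, 22953 and 20826, against 29975 to 32494.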
